A study of Mus musculus with 7 samples.

Results

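The genes described here are the uncoupling proteins and the thermogenic genes that surround them in brown fat. They were measured in mammary glands of virgin female FVB mice carrying the polyoma virus middle T transgene (PyV-MT), an oncogene that drives mammary tumours. The rule named 10 genes, namely Ucp1, Ucp2, Ucp3, Ppargc1a, Ppargc1b, Prdm16, Dio2, Cox7a1, Cox8b and Otop1. A gene was included where a probe set, the group of oligonucleotides that reports a transcript on the array, was annotated to its symbol alone. This gave 19 probe sets of 9 genes, out of 18193 genes with such a probe set, and Ucp2 was not analysed here. Each gene is represented by its probe set of highest mean log2 signal, and the other probe sets are given beside it.

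The mice were fed either chow supplemented with conjugated linoleic acid at 1% (CLA glands) or AIN93G chow (control glands). Conjugated linoleic acid stands for isomers of linoleic acid that have conjugated double bonds. Feeding began at 4 weeks of age and lasted 4 weeks, and glands were taken at 8 weeks. The study placed 6 mice on CLA and 5 on control chow, and the arrays analysed here cover 4 CLA glands and 3 control glands. All of these mice carried the transgene, so no comparison with glands free of the oncogene can be made from them. The RNA came from whole gland, a mixture of epithelium, fat pad and other tissue, in which fewer cells of a type and less RNA per cell cannot be told apart.

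Brown and beige adipocytes burn fat to make heat. Ucp1 forms the proton leak of their mitochondrial inner membrane, so that respiration releases heat in place of making ATP. Cold acts through noradrenaline and cyclic AMP on this programme, thyroid hormone made locally by Dio2 amplifies it, and Prdm16 and the Ppargc1 coactivators set up its transcription. Ucp3 is found in skeletal muscle as well as brown fat, and Cox7a1 and Cox8b encode the heart and muscle type isoforms of cytochrome oxidase subunits, which brown fat also uses. For these genes a signal from a whole gland can therefore have more than 1 cellular source.

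The 250 bases before the start of 4 of these genes are shown because the genes had a lower mean signal in CLA than in control glands. Ucp1, Cox7a1 and Cox8b ordered the arrays much alike and Ucp3 differently. The sequences are from RefSeq (GRCm38.p6), read 5′ to 3′ on the strand of the gene. Ucp1 lies at chr8:83290098-83290347 on the plus strand, Ucp3 at chr7:100472741-100472990 on the plus strand, Cox7a1 at chr7:30183921-30184170 on the plus strand and Cox8b at chr7:140900447-140900696 on the minus strand. Capitals mark any match, on either strand, to AGGTCA (the core motif of nuclear receptors), TGACG (the core of the cyclic AMP response element), TATAAA (the TATA box) or CCAAT (the CCAAT box), and no match overlapped another in these 4 windows.
Ucp1: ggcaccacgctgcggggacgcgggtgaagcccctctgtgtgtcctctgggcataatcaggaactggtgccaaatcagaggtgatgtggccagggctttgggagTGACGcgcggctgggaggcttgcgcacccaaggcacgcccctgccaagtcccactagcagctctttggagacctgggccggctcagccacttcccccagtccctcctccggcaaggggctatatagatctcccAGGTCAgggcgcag
Ucp3: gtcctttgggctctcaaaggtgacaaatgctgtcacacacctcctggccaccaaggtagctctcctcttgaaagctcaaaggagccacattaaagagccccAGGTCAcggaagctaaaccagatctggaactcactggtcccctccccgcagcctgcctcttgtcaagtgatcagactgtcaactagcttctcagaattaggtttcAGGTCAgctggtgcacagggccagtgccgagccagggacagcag
Cox7a1: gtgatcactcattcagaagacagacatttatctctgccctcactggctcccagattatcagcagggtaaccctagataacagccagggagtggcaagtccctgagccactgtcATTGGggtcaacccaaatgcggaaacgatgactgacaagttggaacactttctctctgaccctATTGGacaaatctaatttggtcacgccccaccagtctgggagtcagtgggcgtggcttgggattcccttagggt
Cox8b: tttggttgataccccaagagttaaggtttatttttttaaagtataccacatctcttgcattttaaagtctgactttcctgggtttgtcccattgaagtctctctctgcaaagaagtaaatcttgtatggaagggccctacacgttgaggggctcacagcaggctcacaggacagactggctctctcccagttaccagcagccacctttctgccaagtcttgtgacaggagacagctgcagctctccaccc
AGGTCA occurred once before Ucp1, ending 9 bases before the start, and at 2 places before Ucp3, ending 144 and 39 bases before it. It was in neither cytochrome oxidase window and was present in 14% of the 32851 windows of this length in the table. TGACG occurred before Ucp1, in 17.8% of all windows, and CCAAT, on the opposite strand, at 2 places before Cox7a1, in 33.8% of all windows. Cox8b held none of the 4 motifs, and none of the 4 windows held TATAAA (12.4% of all windows). The search covered 8 genes of the rule. TGACG also occurred before Ppargc1a and Dio2, CCAAT before Prdm16 and TATAAA before Dio2. A match is only a match of letters.

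Signals were intensities from the MAS5 algorithm, and all 7 arrays had the same trimmed mean signal, 500.003. Pearson correlations between arrays, across genes, lay between 0.919 and 0.972. As a check of RNA quality, the Actb control probe sets had a ratio of 3′ over 5′ signal of at most 1.88, except for 2.78 on CLA replicate 3. Replicate numbers used here follow the order of the samples within a diet, since the labels carry none. The sample titles carry experiment numbers whose meaning is not stated. They begin with 27 for CLA replicate 1 and control replicate 1 (the 27 series) and with 28 for the other arrays (the 28 series), and differences are also given within each series. Precision is limited throughout by the number of arrays.

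All 9 genes passed the filter on low signal, a mean log2 signal no lower than the 40th percentile over probe sets, which is a signal of 57.7. Each had a negative log2 change, CLA minus control, as did 44.7% of the 12497 genes tested. Their median log2 change was -0.97, against 0.03 for all genes tested. With limma and Benjamini-Hochberg adjustment, 0 of the 9 passed an adjusted p of 0.05, as did 0.00% of all genes, where the lowest value reached was 0.294. Ucp1, Ucp3, Cox7a1, Cox8b and Otop1, 5 of the 9, had lower signal in CLA glands at an unadjusted p under 0.05, against 3.01% of all genes tested. None of the 9 had higher signal at that level, against 2.38%, and 5.39% of all genes were at that level in either direction. This count includes Ucp1, which passed the filter with 3 of its 4 CLA signals below the filter signal. Under a filter at the 60th percentile, which left out Ucp1, 4 of 6 were lower at that level. The CLA and control arrays did not overlap for 1 of the 9, Ucp3, which was lower in CLA. Of all genes tested, 2.67% were separate with lower and 2.64% with higher signal in CLA, 5.31% in all. The other 4 genes, which are transcriptional regulators and the deiodinase, had intervals that included 0.

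**Figure D1:**
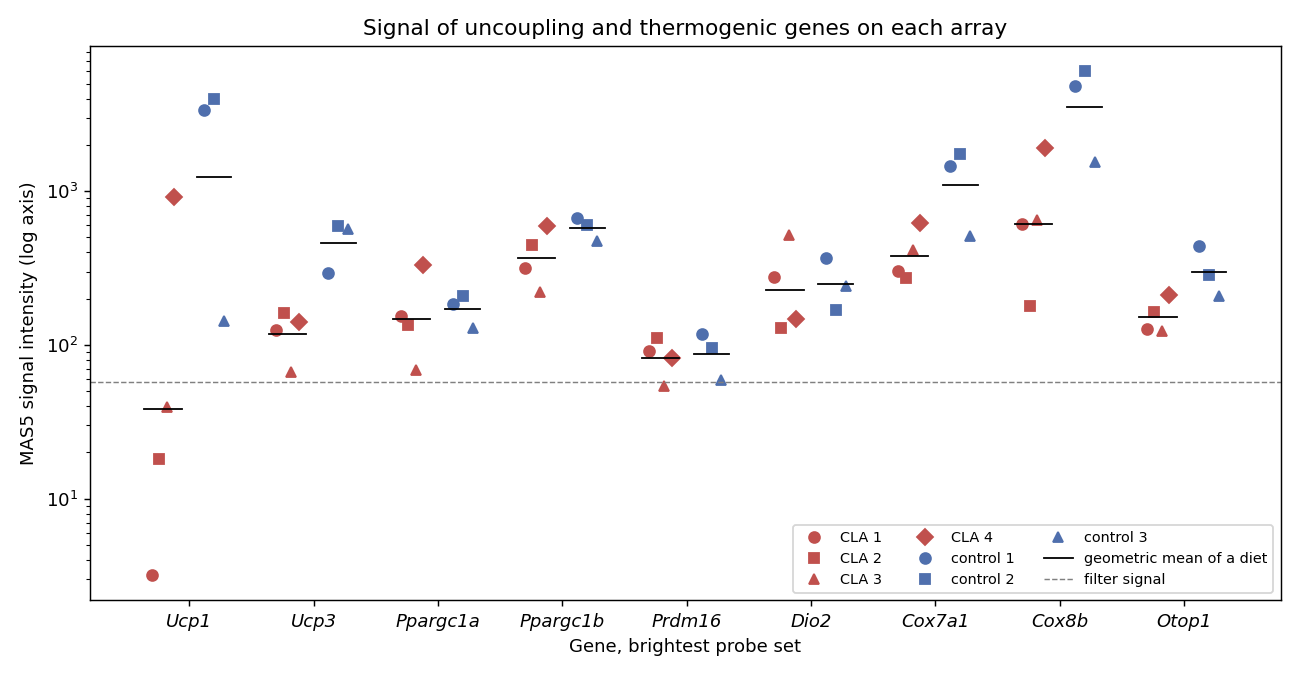
MAS5 signal of the brightest probe set of each gene on a log axis, with CLA arrays in red left of control arrays in blue, the geometric mean of each diet as a bar and the filter signal of 57.7 as a dashed line. Ucp1 spans 3.19 to 3964, CLA replicate 4 and control replicate 3 cross between the diets for most genes, and only Ucp3 has no overlap.

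Ucp1, the proton leak itself, had the widest range of the genes described here. Its signal was 3.19, 18.2, 39.6 and 916 on CLA replicates 1 to 4, against 3383, 3964 and 144 on control replicates 1 to 3. Control replicates 1 and 2 were high, CLA replicates 1 to 3 lay below the filter signal, and CLA replicate 4 exceeded control replicate 3, so that the diets overlapped. Within a diet the highest and lowest array differed 287-fold in CLA glands and 27.6-fold in control glands. Ucp1 passed the filter on its mean although 3 of the 4 CLA arrays lay below the filter signal, where background weighs on MAS5 signals, so the size of its change is uncertain. As computed, the log2 change was -5.03 ± 1.75 (SE), with a 95% interval from -8.96 to -1.10. Limma gave an unadjusted p of 0.0175 and an adjusted p of 0.817. With all signals below 57.7 raised to that level the change was -3.43, the 8th lowest of 12561 genes then tested. It was -10.05 in the 27 series, from 1 array per diet, -3.11 in the 28 series, and -5.15 with the series as a block. Leaving out an array gave -3.84 without CLA replicate 1, -6.56 without CLA replicate 4 and -6.59 without control replicate 3. Its unadjusted p was 0.0661 without control replicate 1 and 0.0644 without control replicate 2, 0.0748 with robust eBayes, 0.0823 with unequal variances gene by gene and 0.142 in the 28 series alone.

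Ucp3, the uncoupling protein homologue of muscle and brown fat, separated the diets. Its signal was 124, 162, 67.2 and 141 on CLA replicates 1 to 4, against 292, 593 and 566 on control replicates 1 to 3. All 4 CLA arrays lay below the lowest control array, and the arrays of a diet differed by at most 2.42-fold in CLA and 2.03-fold in control glands. The log2 change was -1.97 ± 0.36 (SE), 3.92-fold lower, with a 95% interval from -2.78 to -1.16. Limma's unadjusted p of 0.000326 was the 10th smallest of 12497 genes, and its adjusted p was 0.363. Separation was not particular to Ucp3. Of 13 tested white adipocyte markers, a list described below, 7 were separate with lower and 0 with higher signal in CLA glands. The shares of all genes tested were 2.67% and 2.64%. Retn and Cd36 of that list, both without overlap, had the 4th and 9th smallest p. The second probe set of Ucp3 gave 82.3, 25.0, 7.60 and 34.5 on the CLA arrays, against 196, 319 and 238 on the control arrays. It too had no overlap. Since 3 of its CLA signals lay below the filter signal, its difference of -3.18 on the log2 scale is uncertain in size, and it was -1.96 with signals below 57.7 raised to that level. The change of the brighter probe set was -1.23 in the 27 series and -2.33 in the 28 series, and between -2.30 and -1.70 with any 1 array left out.

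The arrays were ordered differently by the 2 uncoupling proteins. Control replicate 3 had the lowest Ucp1 of the control glands but a Ucp3 signal of 566, close to the highest. CLA replicate 4 had the highest Ucp1 of the CLA glands, 916, with a Ucp3 signal of 141 that lay below every control gland. The log2 signal of Ucp1 minus that of Ucp3 averaged -1.63 ± 3.42 in CLA glands (SD, n = 4) and 1.43 ± 2.98 in control glands (SD, n = 3). The difference between diets of -3.06 had a two-sided exact permutation p of 0.286, 0.381 after adjustment over 4 pairs of genes, where the smallest p that 35 splits allow is 0.0571, so this test could not have passed 0.05 whatever the difference. It was -8.82 in the 27 series and -0.79 in the 28 series. It was -1.46 with signals below 57.7 raised to that level, -1.69 with a pseudocount of 64 and -1.84 without CLA replicate 1.

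Cox7a1 signal was 301, 273, 413 and 617 on CLA replicates 1 to 4, against 1457, 1733 and 515 on control replicates 1 to 3. CLA replicate 4 lay above control replicate 3, and the other 3 CLA arrays lay below every control array. The log2 change was -1.52 ± 0.42 (SE), 2.87-fold lower, with a 95% interval from -2.47 to -0.57 and a limma p of 0.00541 (adjusted p = 0.688). Cox8b, whose human counterpart is a pseudogene, had 611, 180, 650 and 1916 on the CLA arrays, against 4795, 6027 and 1541 on the control arrays. Again only CLA replicate 4 overlapped, exceeding control replicate 3. The log2 change of Cox8b was -2.54 ± 0.71 (SE), 5.82-fold lower, with a 95% interval from -4.14 to -0.94 and a limma p of 0.00551 (adjusted p = 0.688). Cox7a1 had a difference of -2.27 in the 27 series and -1.20 in the 28 series, and Cox8b had -2.97 and -2.33 in the same order.

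Set beside Ucp1 array by array, Cox7a1 minus Ucp1 on the log2 scale averaged 3.32 ± 2.94 in CLA glands (SD, n = 4) and -0.19 ± 1.76 in control glands (SD, n = 3). Its exact permutation p was 0.114, adjusted 0.342 over the 4 pairs. Cox8b minus Ucp1 averaged 4.00 ± 2.70 in CLA glands and 1.51 ± 1.66 in control glands, with an exact permutation p of 0.171 and 0.342 after adjustment (SD, n = 4 and n = 3). The 3 CLA signals of Ucp1 below the filter signal enlarge both of these differences. With signals below 57.7 raised to that level, Cox7a1 minus Ucp1 averaged 1.72 ± 1.55 in CLA glands and -0.19 ± 1.76 in control glands, and Cox8b minus Ucp1 averaged 2.40 ± 1.23 in CLA glands and 1.51 ± 1.66 in control glands. Cox7a1 minus Ucp3, the 2 genes also found in muscle, averaged 1.69 ± 0.84 in CLA glands and 1.24 ± 1.26 in control glands, with an exact permutation p of 0.629 before and after adjustment. Control replicate 3 had the lowest value of this last difference, -0.14, and CLA replicate 3 the highest, 2.62. With a smallest possible p of 0.0571, none of these 4 tests could have passed, and their p-values do not show that the genes changed alike.

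The other cytochrome oxidase subunits showed where these isoforms stood within their complex. Of 16 listed subunit genes 15 were tested, and 0 passed after adjustment. At an unadjusted p under 0.05, 3 had lower and 0 higher signal, against 3.01% and 2.38% of all genes tested. The list median was -0.09. The 3 were Cox7a1, Cox8b and Cox6a2, which is the heart and muscle type isoform of another subunit. Cox6a2 had 229, 109, 95.6 and 179 on the CLA arrays, against 216, 1572 and 333 on the control arrays, a log2 change of -1.75 ± 0.61 (SE). Its highest array by far was control replicate 2, and CLA replicate 1 exceeded control replicate 1. The widely expressed counterparts Cox7a2 (-0.04 ± 0.10), Cox7a2l (0.01 ± 0.12) and Cox8a (-0.10 ± 0.13) had changes within 1 SE of 0, and Cox6b1 had -0.17 ± 0.10. For Cox8a the CLA signals were 5869 to 8065, against 6753 to 7854 in control glands.

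**Figure D2:**
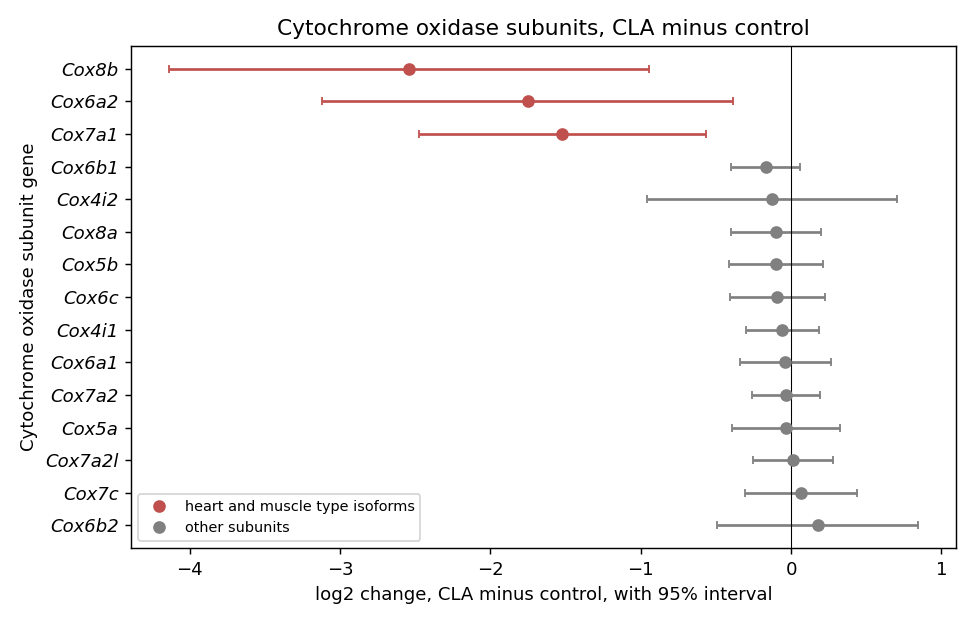
Log2 change, CLA minus control, of 15 cytochrome oxidase subunit genes with 95% intervals, with the heart and muscle type isoforms in red. Cox8b, Cox6a2 and Cox7a1 lie at -2.54, -1.75 and -1.52, and the other 12 intervals include 0.

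Otop1, a proton channel first known from the inner ear and the sour taste cells of mice and also expressed in brown fat, had 127, 164, 123 and 210 on CLA replicates 1 to 4, against 439, 285 and 209 on control replicates 1 to 3. The overlap between diets was between CLA replicate 4 at 209.8 and control replicate 3 at 209.5, which are almost equal. The log2 change was -0.97 ± 0.30 (SE), 1.95-fold lower, with a 95% interval from -1.65 to -0.28 and a limma p of 0.0105 (adjusted p = 0.708). It was -1.79 in the 27 series and -0.60 in the 28 series, and without control replicate 1 it was -0.68 with an unadjusted p of 0.0529. Its relatives Otop2 and Otop3 did not pass the filter, with highest signals of 47.7 and 45.4.

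The coactivator Ppargc1a, which switches on mitochondrial genes and Ucp1 after cyclic AMP signalling, had 154, 134, 69.1 and 329 on CLA replicates 1 to 4, against 186, 209 and 129 on control replicates 1 to 3. CLA glands thus held both the highest and the lowest array. The log2 change was -0.22 ± 0.46 (SE), with a 95% interval from -1.25 to 0.81. Of its 5 probe sets 4 had a lower mean in CLA glands, with differences from -0.44 to 0.05, and CLA replicate 4 was the highest array on 4 of the 5. Ppargc1b, its homologue with a role in mitochondrial content and lipid synthesis, had 318, 445, 221 and 596 on the CLA arrays, against 672, 601 and 477 on the control arrays. All CLA arrays except replicate 4 lay below all control arrays. The log2 change of Ppargc1b was -0.64 ± 0.32 (SE). Its 95% interval ran from -1.35 to 0.06 and its limma p was 0.0692 (adjusted p = 0.904).

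Prdm16, a zinc finger factor that directs brown and beige fat identity, was dim, with 91.1, 110, 54.2 and 82.7 on CLA replicates 1 to 4, against 118, 95.5 and 59.2 on control replicates 1 to 3. The log2 change was -0.09 ± 0.36 (SE). Its other 3 probe sets stayed between 3.38 and 101 and differed in sign, with differences from -1.05 to 0.58, and no direction can be read from them. Dio2, which converts thyroxine to the active hormone, had 276, 129, 518 and 148 on CLA replicates 1 to 4, against 369, 169 and 243 on control replicates 1 to 3. CLA glands again held both extremes, the highest on CLA replicate 3. The log2 change of Dio2 was -0.12 ± 0.47 (SE). Its 95% interval ran from -1.18 to 0.95, and its 3 probe sets had differences from -0.13 to -0.04, of which the last was 0.061 with signals below 57.7 raised to that level.

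**Figure D3:**
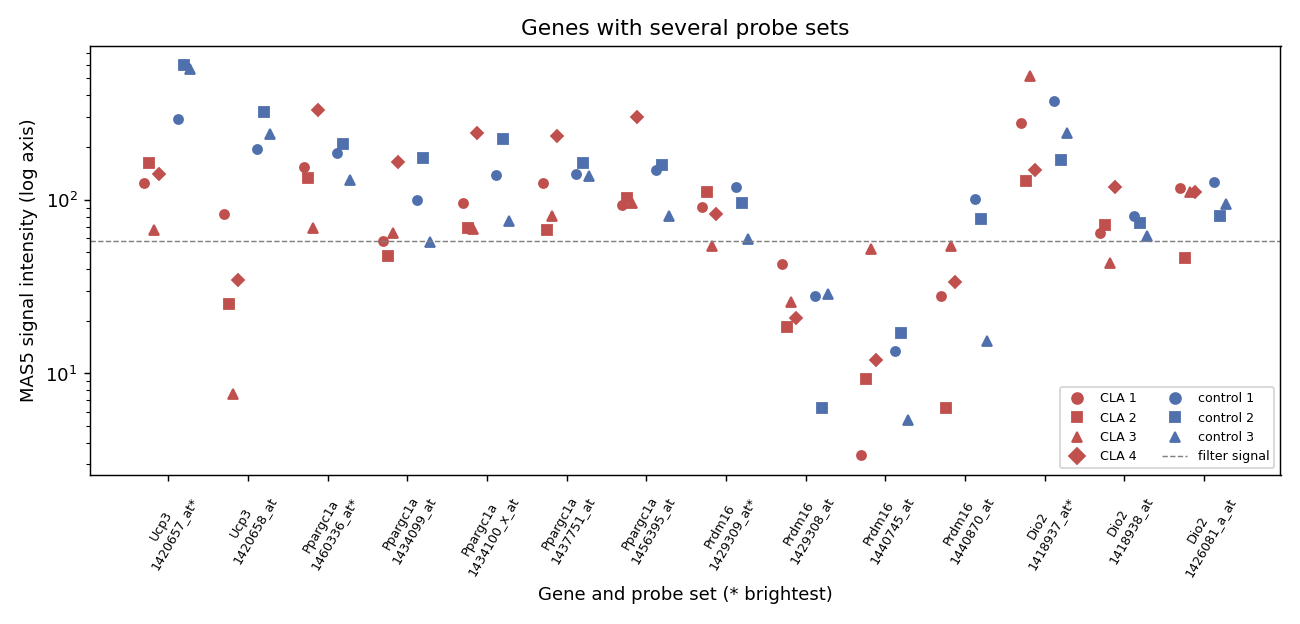
MAS5 signal on a log axis for every probe set of the 4 genes that have several, with CLA arrays in red left of control arrays in blue and the brightest probe set of each gene starred. Both Ucp3 probe sets separate the diets, whereas those of Ppargc1a, Prdm16 and Dio2 overlap.

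**Figure D4:**
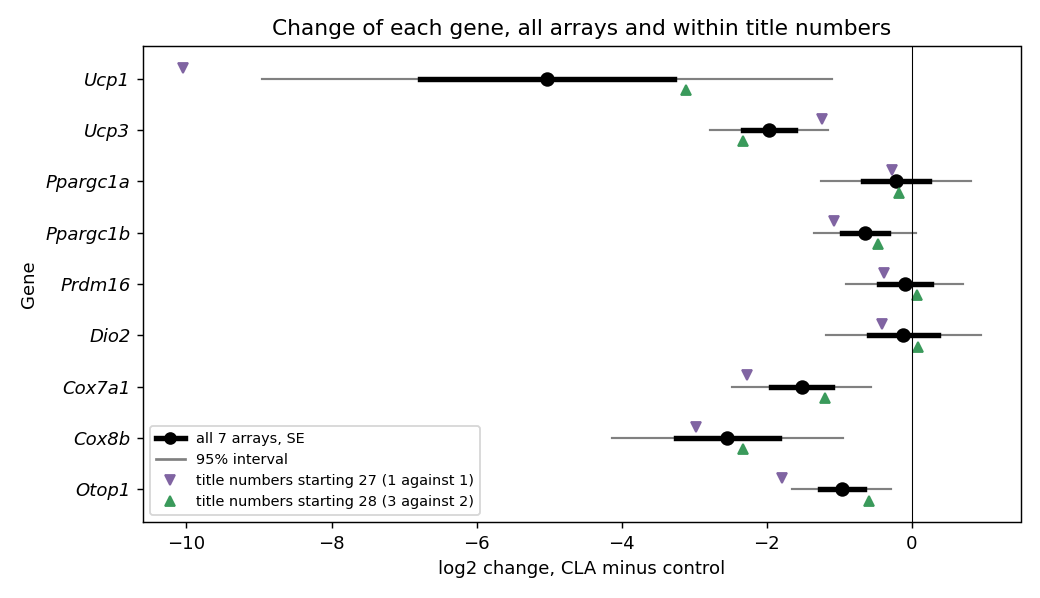
Log2 change of each gene, CLA minus control, with its SE (thick) and 95% interval (thin), and the differences within the 27 and the 28 series. Intervals of Ucp1, Ucp3, Cox7a1, Cox8b and Otop1 exclude 0, and Prdm16 and Dio2 change sign between the series.

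Markers of the cell types that could carry these transcripts were then set beside them, each list scored as the mean log2 signal of its tested members relative to the mean over the 7 arrays. Brown adipocyte markers scored -0.44, -0.61, -0.88 and 0.20 on CLA replicates 1 to 4, against 1.08, 0.94 and -0.29 on control replicates 1 to 3. This is the order seen for Ucp1 at its upper end, with control replicates 1 and 2 highest and CLA replicate 4 next. White adipocyte markers scored -0.84, -0.96, -0.78 and 0.36 on the CLA arrays, against 0.55, 1.03 and 0.63 on the control arrays, so these groups did not overlap. Skeletal muscle markers scored 1.27, -3.13, -1.20 and -3.23 on the CLA arrays, against 0.79, 4.07 and 1.42 on the control arrays. CLA replicate 1, with a muscle score inside the control range, had a Ucp1 signal of 3.19. That lay below the filter signal, as did Ucp1 on CLA replicates 2 and 3, so the order of these arrays is uncertain. CLA replicate 4, with the lowest muscle score, had the highest Ucp1 of the CLA glands.

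Summed over the tested members of each list, brown adipocyte markers gave signals of 5471 to 8271 in CLA glands and 7790 to 13831 in control glands. White adipocyte markers gave 20149 to 44265 in CLA glands and 54521 to 67541 in control glands, and muscle markers 821 to 18057 in CLA glands and 12333 to 112800 in control glands. No marker with a probe set had a signal of 0 on any array. At an unadjusted p under 0.05, 11 of 13 tested white adipocyte markers (of 15 listed, median -1.45) had lower signal in CLA glands. So had 16 of 16 tested muscle markers (of 20 listed, median -3.96), and 0 passed after adjustment in either list. The share of all genes tested that was lower at that level was 3.01%, which also stands beside the counts of the other lists below. Some muscle markers, among them Myh1, Myh2, Tnnt3 and Casq1, passed the filter on their mean although several CLA signals lay below it. Tnnt3, for example, had 6.50 and 4.09 on CLA replicates 2 and 4, against 5032 on control replicate 2. The count and median of the muscle list are therefore uncertain. The log2 differences of the muscle markers Ckm and Acta1 were 0.65 and 0.62 in the 27 series, from 1 array per diet, and -5.93 and -6.64 in the 28 series. Ckm at 33.2 on CLA replicate 2, and Acta1 at 31.8 and 56.8 on CLA replicates 2 and 4, lay below the filter signal. Both were highest on control replicate 2, at 10953 and 19588, so the size of their differences in the 28 series is uncertain. The log2 differences of Ucp3, Cox7a1 and Cox8b, given above, were negative in both series, that of Ucp3 being the larger in the 28 series. The part of adipocytes and muscle cells in the differences of Ucp1, Ucp3, Cox7a1, Cox8b and Otop1 was not tested. Macrophage scores lay between -0.05 and 0.17 and luminal epithelial scores between -0.12 and 0.19 over all arrays. Of the macrophage list, 10 of 10 were tested and 2, Cd163 (-1.06 ± 0.24) and Cd14 (-0.68 ± 0.23), were lower at an unadjusted p under 0.05. Of 12 luminal markers 10 were tested and 1 was lower, Muc1 (-0.54 ± 0.22), and of 10 lymphocyte markers 2 were tested with 0 lower. None of these passed after adjustment.

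**Figure D5:**
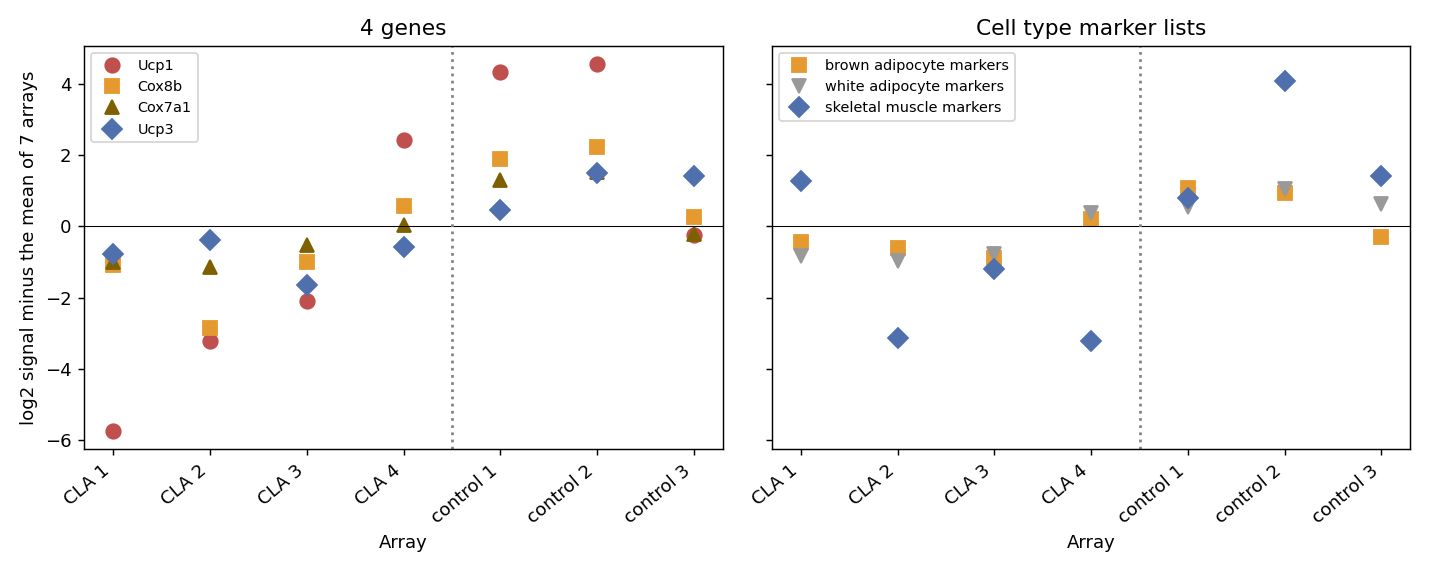
Log2 signal relative to the mean over the 7 arrays, for 4 genes (left) and for the mean of 3 marker lists (right), with CLA arrays left of control arrays in each panel. Ucp1, Cox7a1 and Cox8b are highest on control replicates 1 and 2 and then CLA replicate 4, and the muscle score of CLA replicate 4 is the lowest at -3.23.

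Of 20 brown adipocyte markers 17 had a probe set and 10 were tested. All 10 had a negative change, against 44.7% of all genes tested, and the median log2 change was -1.01. At an unadjusted limma p under 0.05, 4 were lower, against 3.01% of all genes tested, and 0 passed after adjustment. Among the markers below the filter, Zic1 and Bmp8b had higher mean log2 signal in CLA glands, by 0.85 and 0.23, and the rest had lower. Cidea, a lipid droplet protein of brown fat, had 238, 112, 154 and 1108 on CLA replicates 1 to 4, against 5091, 4026 and 809 on control replicates 1 to 3. Like Ucp1 it was highest on control replicates 1 and 2 and crossed between CLA replicate 4 and control replicate 3. Its log2 change was -3.30 ± 0.82 (SE, adjusted p = 0.670 by limma). The other 3 were the secreted factor Nrg4 (-1.02), whose diets did not overlap, the droplet protein Plin5, 2.01-fold lower, and the elongase Elovl3 (-1.94). Elovl3 passed the filter through control replicates 1 and 2, at 359 and 538, with CLA signals of 33.8 to 78.2, so its change is uncertain. The brightest of the list, the nucleoside transporter Slc29a1, which other cells of the gland also express, had -0.02 ± 0.19, and Letmd1 had -0.09 ± 0.24. Of 8 beige markers 5 were tested and 1, Car4 (-1.34 ± 0.57), was at an unadjusted p under 0.05, with a list median of -0.47, while Tbx15 (-0.42 ± 0.43) and Shox2 (-0.47 ± 0.54) were not. Car4 lay below the filter signal on CLA replicates 1 to 3, at 16.2, 56.4 and 55.9, so its change too is uncertain. Zic1, a transcription factor that marks classical brown fat, stayed at or below 34.9 on every array.

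Upstream of Ucp1, of 30 genes for adrenergic signalling and its transcription factors 22 were tested, with 0 past adjustment and a median of -0.05. At an unadjusted p under 0.05, 0 were higher and 2 lower, against 2.38% and 3.01% of all genes tested. The 2 were Pparg (-1.52 ± 0.42), the master regulator of fat cells, and Prkar2b (-0.74 ± 0.31), a regulatory subunit of protein kinase A that is abundant in fat. The nuclear receptor Esrra, a partner of the Ppargc1 coactivators, had -0.34 ± 0.19. Of 9 genes of thyroid hormone action 6 were tested with 1 lower, 0 higher, 0 after adjustment and a median of -0.03. The lower gene was Thrsp, a thyroid-responsive gene of fat synthesis, at -0.38 ± 0.15, and its diets did not overlap, whereas the receptor Thrb had 0.21 ± 0.32. Genes of mitochondrial biogenesis, 16 listed and 16 tested, had 0 members at an unadjusted p under 0.05 in either direction and a median of 0.03. The replicative helicase Twnk had 0.26 ± 0.17 and the mitochondrial single-strand binding protein Ssbp1 0.15 ± 0.11.

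Other mitochondrial carriers, the family to which uncoupling proteins belong, were tested for 10 of 11 genes, with 0 past adjustment and a median of -0.11. At an unadjusted p under 0.05, 0 were higher and 2 lower, against 2.38% and 3.01% of all genes tested. The 2 were the citrate carrier Slc25a1 (-0.68 ± 0.17) and the carnitine carrier Slc25a20 (-0.67 ± 0.17), both without overlap. The carriers most related to the uncoupling proteins, Slc25a27 (-0.25 ± 0.25), Slc25a14 (-0.01 ± 0.28) and Slc25a30 (-0.32 ± 0.37), had changes no larger than about their SE. Of 13 genes listed for heat made without Ucp1, mostly of creatine and calcium cycling, 10 were tested. At an unadjusted p under 0.05, 3 were lower and 0 higher, with 0 after adjustment and a median of 0.13. The muscle calcium pump Atp2a1 (-3.77 ± 1.12) and calcium release channel Ryr1 (-3.51 ± 1.21) were highest on control replicate 2, at 9353 and 1797, the array with the highest muscle score. Ryr1 lay below the filter signal on CLA replicates 2 and 3, at 3.58 and 57.2, and Atp2a1 on CLA replicate 2, at 42.0. The size of both changes is therefore uncertain. The third lower gene was Pm20d1 (-0.85 ± 0.32), an enzyme that makes N-acyl amino acids, and its diets did not overlap.

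As a description of which transcripts followed the same arrays, the 5 tested genes of highest Pearson correlation of log2 signal over the 7 arrays were listed for 3 of the genes. For Ucp1 they were Cmbl (r = 0.99), Slc24a3 (0.97), Gbe1 (0.96), Agpat2 (0.96) and Prxl2a (0.96). Among 12496 genes Cox7a1 ranked 29th in likeness to Ucp1 (r = 0.93), Cidea 50th (0.91), Cox8b 84th (0.88) and Otop1 85th (0.88). The adipocyte genes Fabp4 (77th, 0.89) and Adipoq (90th, 0.87) followed Ucp1 about as closely, and the brown fat gene Elovl3 ranked 418th (0.70). Ucp3 ranked 794th (0.58), and the muscle gene Ckm 2148th (0.35). For Cox7a1 the 5 were Uhrf1bp1l, Ephx2, 5730455P16Rik, Mettl7a1 and Edn1, with r from 0.98 to 0.99, and Cidea ranked 20th (0.95), Cox8b 29th (0.95), Ckm 714th (0.61) and Ucp3 644th (0.63). For Ucp3 they were Cldn15 (0.97), N4bp1 (0.96), Ammecr1 (0.96), Ddhd2 (0.96) and Vwa8 (0.95), and Fabp4 of adipocytes ranked 264th (0.78), Cidea 539th (0.70), Ckm 563rd (0.69) and Ucp1 1064th (0.58). All of these values rest on the same 7 arrays and include the difference between the diets.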

How the data were processed

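RNA of 7 mammary glands was measured on Affymetrix arrays with 1 colour. The authors deposited linear signal intensities made with MAS5, per the submitters' processing notes, for 45101 probe sets. Equal trimmed means show that arrays had been scaled, so a change is relative to a gland's other transcripts. The version of MAS5 and the build are not given in the sources used.

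Log2 was taken after raising signals below 1 to 1. Of the 45101 probe sets, 64 controls, 932 with several symbols and 9160 with none were left out, and 34945 remained. Of these, 34741 were named through the Entrez identifier in a RefSeq gene table. The 12497 genes at or above the 40th percentile entered a two-sided limma fit (limma 3.58.1, R 4.3.3, lmFit and eBayes with trend), with Benjamini-Hochberg adjustment over all of them. The fit was tested on simulated data. Differences between genes were compared by exact permutation over 35 splits. Figures used matplotlib 3.10.9.

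Each array is taken as 1 animal, since the labels call every sample a mouse. The genes, the 14 lists and the tests were chosen with earlier results of these data known, and the motifs after the values were seen. Genes to name were taken from the genes of the rule, isoforms and relatives, the 3 genes of smallest p in a list, the 3 brightest of a cell type list and the 5 most alike. Not all genes that meet these terms are named above. Zic1 was added after its values were seen. Alternatives were other scalings, pseudocounts of 16 and 64, other filters and variance models, averaged probe sets, unequal variances gene by gene, the title series as a block or alone, and each array left out.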

Additional observations from a re-analysis of the deposited data

How the results depend on the processing

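The number of genes past an adjusted p of 0.05 was 0 in the reported fit and 1 in the 28 series, and it ran from 0 to 17 with an array left out (17 without CLA replicate 4, 2 without control replicate 1). None of the 9 genes described here was among them under any of the 21 alternatives, from 0 to 0 with an array left out. The number of the 9 at an unadjusted p under 0.05 with lower signal, 5 in the reported fit, was 2 with unequal variances gene by gene and 2 in the 28 series (Cox8b and Ucp3 in both), and ran from 3 to 6 with an array left out. It was 4, without Ucp1, with robust eBayes and without control replicate 2, 3 without control replicate 1 and 6, with Ppargc1b, without CLA replicate 4. Ucp3 and Cox8b were at an unadjusted p under 0.05 under all 21 alternatives. The change of Ucp1, Ucp3, Cox7a1, Cox8b, Otop1 and Ppargc1b stayed negative under every alternative that tested them. That of Ppargc1a was 0.14 without CLA replicate 3. That of Prdm16 was 0.072 in the 28 series, 0.10 without CLA replicate 3 and 0.12 without control replicate 1, and that of Dio2 was 0.081 in the 28 series, 0.16 without CLA replicate 2, 0.09 without CLA replicate 4 and 0.17 without control replicate 1. With an array left out, these changes ran from -0.61 to 0.14 for Ppargc1a, -0.38 to 0.12 for Prdm16 and -0.51 to 0.17 for Dio2. The cause was not tested. The difference between Ucp1 and Ucp3 ran from -4.76 to -1.84 with an array left out. Setting signals below the filter signal to it was chosen after seeing the data. Median centring moved the median of all genes to 0.11. The 60th percentile filter left 6 of the 9 genes, without Ucp1, Ppargc1a and Prdm16, and the mean of probe sets left 8, without Prdm16. Low signal over background limits Ucp1 in CLA glands and Prdm16 throughout. No paired analysis was possible because the labels give no pairing of CLA with control arrays. The title series was fitted as a block instead, and the same 5 of the 9 genes were at an unadjusted p under 0.05.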

Other observations

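A channel and a receptor of brown fat fell outside the tests because their mean signal lay below the filter, and they were picked after their values were seen. Kcnk3, a potassium channel of brown adipocytes, had 8.14, 13.3, 6.01 and 16.9 on CLA replicates 1 to 4, against 145, 251 and 54.1 on control replicates 1 to 3, without overlap. Ppara, a nuclear receptor for fatty acids that is abundant in brown fat, had 6.99, 24.9, 41.2 and 94.9 on the CLA arrays, against 251, 264 and 41.5 on the control arrays. Both were highest on control replicates 1 and 2, as was Ucp1, and Ppara also crossed between CLA replicate 4 and control replicate 3. Of the other untested brown adipocyte markers on the array, Zic1 and Bmp8b had higher mean log2 signal in CLA glands, by 0.85 and 0.23, and Lhx8, Slc27a2 and Cpn2 had differences of -0.53, -0.57 and -0.92, all 5 with overlap and at low signal. Nearly all CLA signals of both genes lay below 57.7, so no fold is given.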
